A study of Mus musculus with 4 samples.

Results

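The peaks described here are the 672 sites at which NR1D1 gave a CUT&Tag peak at the end of a protein-coding gene in vasostatin-2-treated smooth muscle cells, with no overlapping peak in PBS-treated cells. They were chosen by measured values, namely the positions of the peaks in both lists. A peak of the vasostatin-2 list was a member when its summit lay within 1 kb of either end of a RefSeq protein-coding gene (mouse build mm10) and the peak shared not even 1 bp with any peak of the PBS list. The members made up 672 of the 8816 peaks of the vasostatin-2 list. They were 10.9% of the 6167 vasostatin-2 peaks with no PBS overlap (95% Wilson interval 10.14 to 11.7%). They were also 36.25% (34.09 to 38.46%) of the 1854 vasostatin-2 peaks at gene ends.

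Primary vascular smooth muscle cells from aortas of WT mice were grown in serum-containing DMEM and given vasostatin-2, a fragment of the secretory-granule protein chromogranin A, or PBS for 24 hours. The strain and age of the mice, the vasostatin-2 dose and the number of animals are not given in the sources used here. CUT&Tag uses an antibody to direct a transposase to a chromatin protein, so that DNA close to that protein is released and sequenced. Each treatment had 1 NR1D1 library and 1 library with control IgG, all under the same batch label, and the 2 NR1D1 peak lists were analysed here while the IgG libraries were not used here. With 1 library per treatment, treatment and library cannot be told apart, no test of vasostatin-2 was possible, and every interval below covers counting error only. Absence from the PBS list means that no peak was called there, not that no NR1D1 signal was present. The vasostatin-2 library was also the deeper, at 1.32 times the PBS depth. This was judged from the lowest background level in each list, divided by a fitted fragment length.

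NR1D1 (REV-ERB alpha) is a heme-binding nuclear receptor and a repressor in the circadian clock. It binds DNA at AGGTCA core sites, often with an A/T-rich flank shared with the ROR receptors, or reaches DNA through other factors, and it recruits the NCoR corepressor with HDAC3. In vascular smooth muscle it is best known as a component of the peripheral clock and as a regulator of inflammatory and metabolic genes.

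The promoter sequences below, each the 250 bases before a RefSeq start, were picked for the motif letters they hold, by fold within each motif, with the exceptions named below. They show promoters whose window held the summit of a member, and some marked letters lie outside the peak itself. All are on GRCm38.p6, the mm10 assembly, are written 5′ to 3′ on the strand of the gene, and end at the base before the tabulated start. A gene can have several tabulated starts, so distances given with these sequences are from the start of the printed window, while all later distances are from the outer end of the gene in the annotation and can differ. In the first set capitals mark AGGTCA or its reverse complement TGACCT, the core site of nuclear receptors. The set holds the 5 members of highest fold whose summit fell in a window with that core site. The windows were chr11:73199043-73199292 for Ctns, chr14:56778319-56778568 for Pspc1, chr8:70873491-70873740 for Ccdc124, chr10:10558208-10558457 for Rab32 and chr7:45830790-45831039 for Grwd1, all on the minus strand.
Ctns: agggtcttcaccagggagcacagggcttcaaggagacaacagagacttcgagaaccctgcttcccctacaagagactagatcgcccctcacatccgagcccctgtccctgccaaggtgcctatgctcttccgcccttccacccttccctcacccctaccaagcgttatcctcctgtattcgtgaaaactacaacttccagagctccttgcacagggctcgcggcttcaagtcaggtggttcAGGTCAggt
Pspc1: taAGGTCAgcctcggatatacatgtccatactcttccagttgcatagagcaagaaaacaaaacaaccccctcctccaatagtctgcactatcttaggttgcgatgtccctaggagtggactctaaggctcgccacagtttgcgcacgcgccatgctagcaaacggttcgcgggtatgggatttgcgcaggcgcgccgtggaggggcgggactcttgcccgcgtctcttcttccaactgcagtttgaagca
Ccdc124: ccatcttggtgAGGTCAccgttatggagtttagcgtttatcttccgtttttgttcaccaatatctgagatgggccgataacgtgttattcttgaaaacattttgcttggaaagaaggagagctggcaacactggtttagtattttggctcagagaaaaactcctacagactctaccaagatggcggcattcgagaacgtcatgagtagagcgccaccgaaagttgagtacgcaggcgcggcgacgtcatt
Rab32: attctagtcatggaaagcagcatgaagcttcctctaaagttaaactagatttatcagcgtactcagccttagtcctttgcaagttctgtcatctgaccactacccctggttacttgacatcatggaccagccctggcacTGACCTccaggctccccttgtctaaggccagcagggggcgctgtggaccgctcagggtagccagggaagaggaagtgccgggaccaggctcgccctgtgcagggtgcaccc
Grwd1: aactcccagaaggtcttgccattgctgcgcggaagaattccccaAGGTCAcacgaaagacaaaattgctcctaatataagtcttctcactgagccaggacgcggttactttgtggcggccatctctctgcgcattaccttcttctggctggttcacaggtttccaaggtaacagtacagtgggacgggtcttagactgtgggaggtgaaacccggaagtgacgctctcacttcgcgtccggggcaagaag

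In the second set capitals mark CACGTG, the E-box bound by CLOCK-BMAL1 and other factors, or TGACGTCA, the cyclic AMP response element. The windows were chr7:127708767-127709016 for Bcl7c, chr9:7837058-7837307 for Birc2 and chr8:123949266-123949515 for Nup133, also on the minus strand.
Bcl7c: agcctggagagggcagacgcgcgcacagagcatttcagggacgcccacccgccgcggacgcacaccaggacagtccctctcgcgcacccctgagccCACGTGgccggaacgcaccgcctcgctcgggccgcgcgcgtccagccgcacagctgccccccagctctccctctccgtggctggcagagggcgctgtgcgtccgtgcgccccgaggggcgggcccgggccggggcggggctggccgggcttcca
Birc2: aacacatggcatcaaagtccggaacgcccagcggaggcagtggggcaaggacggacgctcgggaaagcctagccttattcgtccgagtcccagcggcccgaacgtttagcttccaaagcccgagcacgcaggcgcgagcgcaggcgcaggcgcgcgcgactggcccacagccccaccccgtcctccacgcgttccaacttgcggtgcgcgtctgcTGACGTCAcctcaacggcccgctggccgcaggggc
Nup133: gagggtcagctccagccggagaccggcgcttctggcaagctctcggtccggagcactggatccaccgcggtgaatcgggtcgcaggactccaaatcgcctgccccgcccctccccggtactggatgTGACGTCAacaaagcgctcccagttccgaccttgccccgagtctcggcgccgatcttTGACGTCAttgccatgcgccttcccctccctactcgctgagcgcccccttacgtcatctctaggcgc

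The last set was chosen after the values were seen. It gives the member of highest fold, Ulk1 (chr5:110810082-110810331, minus strand), and the thromboxane A2 receptor gene Tbxa2r (chr10:81328018-81328267, plus strand), which encodes a contractile receptor of smooth muscle. Capitals again mark the core site.
Ulk1: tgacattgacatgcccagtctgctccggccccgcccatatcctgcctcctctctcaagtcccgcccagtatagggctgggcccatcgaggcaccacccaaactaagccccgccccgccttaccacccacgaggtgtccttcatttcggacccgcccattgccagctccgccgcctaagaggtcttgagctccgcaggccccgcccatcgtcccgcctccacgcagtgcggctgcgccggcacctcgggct
Tbxa2r: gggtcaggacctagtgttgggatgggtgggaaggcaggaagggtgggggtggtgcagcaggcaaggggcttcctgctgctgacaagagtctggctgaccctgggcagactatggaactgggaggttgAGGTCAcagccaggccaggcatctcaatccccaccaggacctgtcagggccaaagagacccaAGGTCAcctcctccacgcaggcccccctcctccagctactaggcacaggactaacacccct

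The distance between summit and core site varied over most of the window. At Ccdc124 the core site began 239 bases before the start and the summit lay 229 bases before it. At Grwd1 the site began 206 bases before the start and the summit lay 59 bases before that tabulated start, which is 146 bp inside the gene as measured from its outer end. At Ctns the site ended 4 bases before the start and the summit lay 198 bases before it. The core sites at Ctns and Rab32 lay outside the peak. Tbxa2r held 2 core sites, beginning 123 and 61 bases before the start, with the summit 19 bases before it. Nup133, a nuclear pore subunit, held 2 cyclic AMP response elements, beginning 124 and 67 bases before the start, and the summit lay 179 bases before it. The element nearer the Nup133 start lay outside the peak. The Ulk1 window, under the strongest member, held none of these letters.

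The members were weak peaks beside those that both libraries shared. The number of fragments at a member's summit ran from 4 to 22, with a median of 6 and quartiles of 5 and 8. Shared gene-end peaks of the same vasostatin-2 list had a median of 10 and a maximum of 150, and PBS-only gene-end peaks had a median of 8 and a maximum of 30. At least 8 fragments were present at 223 members (33.18%) and at 882 of the 1182 shared peaks (74.62%). Since the rule used presence in the PBS list, which depends on peak strength, these values are a description and no result about NR1D1.

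**Figure D1:**
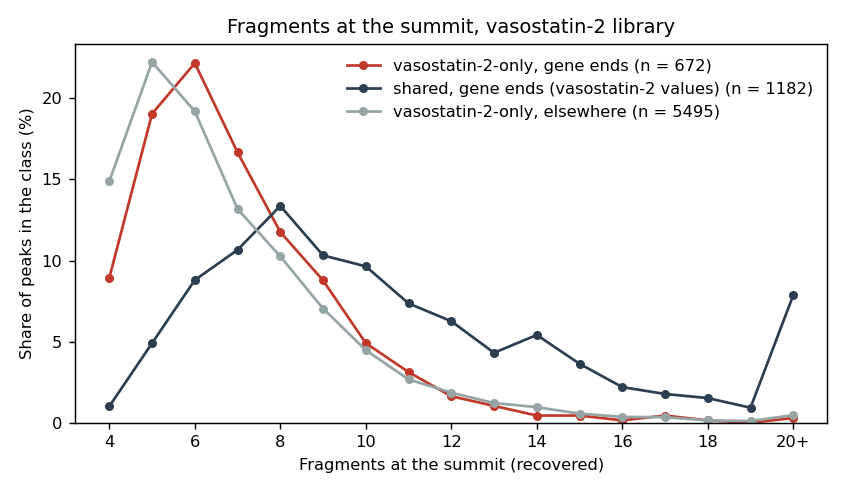
Percent of peaks (vertical axis) by fragments at the summit (horizontal axis) in the 1 vasostatin-2 library. The classes are vasostatin-2-only and shared peaks at protein-coding gene ends, and vasostatin-2-only peaks elsewhere. The vasostatin-2-only peaks at gene ends centre on a median of 6 fragments, the shared peaks on 10 and the vasostatin-2-only peaks elsewhere on 6.

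Fold enrichment over local background, as deposited by the authors, had a median of 4.67 among members (range 3.42 to 11.03) and 5.76 among shared peaks. Median width was 245.5 bp for members and 343 bp for shared peaks. Local background at the summit had a median of 0.575 fragments for members, 0.831 for shared peaks and 0.4199 for vasostatin-2-only peaks away from gene ends. Thus the members lay in a background between those of the other groups, and 109 of them (16.22%) sat at the lowest background of the library against 32.52% of the peaks elsewhere.

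Dividing by the depth ratio of 1.32 left 484 members (72.02%, 68.51 to 75.29%) at or above 4 fragments, the lowest summit in the PBS list. Only 52 (7.74%) reached 8, the median PBS summit. By this ratio, which rests on fitted fragment lengths, the other 188 members, those with 4 or 5 fragments, would fall below every PBS peak at the PBS depth. The part of depth in their absence from the PBS list was not tested beyond this scaling.

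Most members had no PBS peak within 10000 bp, but the rule had already removed every peak that overlapped a PBS peak. The distances therefore only describe the chosen members, and no matching share over all peaks is set beside them here. The nearest PBS peak was within 500 bp at 53 members (7.89%, 6.08 to 10.17%) and within 10000 bp at 143 (21.28%), and the median gap was 41959 bp. At 129 members (19.2%, 16.4 to 22.35%) a PBS peak lay elsewhere within 3 kb of the ends of the same gene. Prss36, a serine protease gene, had 22 fragments in its vasostatin-2 peak and 10 in a PBS peak 575 bp away. Tspyl2, a nucleosome assembly gene, had 9 fragments at 7.13-fold in its vasostatin-2 peak, while its PBS peak 5634 bp away had 13 at 8.82-fold. For Xirp1, which encodes an actin-binding repeat protein of striated muscle, the PBS peak 1696 bp from the member had 38 fragments against 17 in the member. At these genes both libraries gave a peak, at different places, and the larger count was in PBS for Tspyl2 and Xirp1.

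At the edges of the rule, members and non-members had similar values. The members farthest from a gene end were Pde12 at 993 bp (7 fragments), Ibtk at 987 bp (6) and Pim1 at 985 bp (8), and the nearest peaks beyond the limit were at Clic1, 1007 bp (8), Fam216b, 1009 bp (7), and Nt5e, 1014 bp (5). The smallest gaps to a PBS peak were 13 bp at Csdc2 and at Vdac3 and 15 bp at Sptbn4, where member and PBS peak had 6 and 8, 7 and 7, and 9 and 9 fragments. The smallest overlaps, which placed a peak among the shared ones, were 9 bp at Gosr2, Shisa4 and Ankrd35. These 6 genes show that the split between vasostatin-2-only and shared can rest on a few base pairs.

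The members lay within 1 kb of an end of 773 protein-coding genes, which is 3.53% of the 21887 in the annotation. Shared peaks marked 1449 genes (6.62%) and PBS-only peaks 1718 genes (7.85%), so vasostatin-2-only peaks were the smallest of the 3 classes. Of the 773 genes, 663 had neither other class of end peak, 79 also had a PBS-only end peak and 32 also had a shared one. The rule chose these genes, and overlapping or readthrough genes were each counted. A single gene lay within reach of 567 members, a pair of genes of 102 and 3 genes of 3. At 57 members (8.48%) starts of genes on opposite strands both lay within 1 kb. The end of a noncoding gene lay within 1 kb of 80 members (11.9%), among them 66 with a long noncoding RNA gene and 7 with a microRNA gene.

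Over all strengths, a larger share of members than of the other classes lay at far ends of genes. The rule took either end, and the strand was known for 79.9% of protein-coding genes, so which end was nearest could be read for 540 members. The 21 members on chromosome 18 enter neither these shares nor the motif counts. Of the 540 members, 476 (88.15%, 85.15 to 90.61%) were nearest a start and 64 nearest the far end. The start share was 96.36% (95 to 97.36%) among 989 shared peaks and 94.13% (92.68 to 95.31%) among 1244 PBS-only peaks, and neither interval overlaps that of the members. Among peaks of 6 to 8 fragments the share was 89.29% (85.12 to 92.39%) for members, 96.6% (94.02 to 98.09%) for shared peaks and 94.28% (92.0 to 95.94%) for PBS-only peaks. Among peaks of 4 to 5 fragments it was 87.41% (80.98 to 91.89%) for members and 86.44% (80.62 to 90.72%) for PBS-only peaks, whose intervals overlap almost fully, and 94.64% (85.39 to 98.16%) for 56 shared peaks, whose interval overlaps both. At 9 to 12 fragments the shares were 87.5% (79.78 to 92.55%) against 96.9% (94.54 to 98.26%) for PBS-only peaks. At equal raw counts the members' interval was therefore clear of that of PBS-only peaks only at 9 to 12. It overlapped that of PBS-only peaks at 4 to 5, 6 to 8 and 13 or more. These counts were not scaled for depth, and the vasostatin-2 library was 1.32 times as deep. The members' interval at 9 to 12 also overlapped that of PBS-only peaks at 6 to 8. Against shared peaks, counted in the same library, the members' interval was clear at 6 to 8 and at 9 to 12. It was also clear at 13 or more, where only 13 members were counted.

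**Figure D2:**
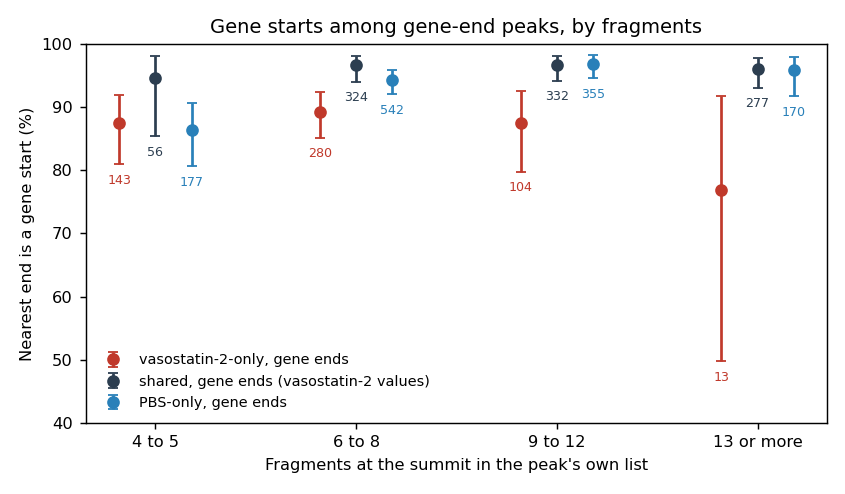
Percent of gene-end peaks whose nearest gene end is a start (vertical axis), by number of fragments at the summit (horizontal axis), for the 3 classes of peak; points are shares and bars 95% Wilson intervals, which cover counting error only, with the number of peaks under each bar. Fragments are raw counts in the library of each peak, not scaled for depth. The vasostatin-2-only peaks lie between 76.92 and 89.29%, and the shared peaks between 94.64 and 96.69%.

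Summits of the members were spread more widely around gene ends and, where assigned to a start, around the start. Positions were not compared at matched fragments. Within 250 bp of the nearest gene end lay 51.64% of members (47.86 to 55.4%), 67.01% of shared peaks (64.27 to 69.63%) and 64.9% of PBS-only peaks (62.42 to 67.3%). The median member assigned to a start lay 68 bp inside the gene, with quartiles at -150.8 and 265.8 bp, negative values lying before the start. The median was 18 bp before the start for shared peaks (quartiles -170 and 161 bp) and 24 bp after it for PBS-only peaks (-129.5 and 201 bp). Upstream summits made up 41.18% of members (36.84 to 45.65%), 52.47% of shared peaks (49.29 to 55.62%) and 46.54% of PBS-only peaks (43.7 to 49.4%). The member share was below the shared one beyond counting error, while its interval overlapped that of PBS-only peaks.

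**Figure D3:**
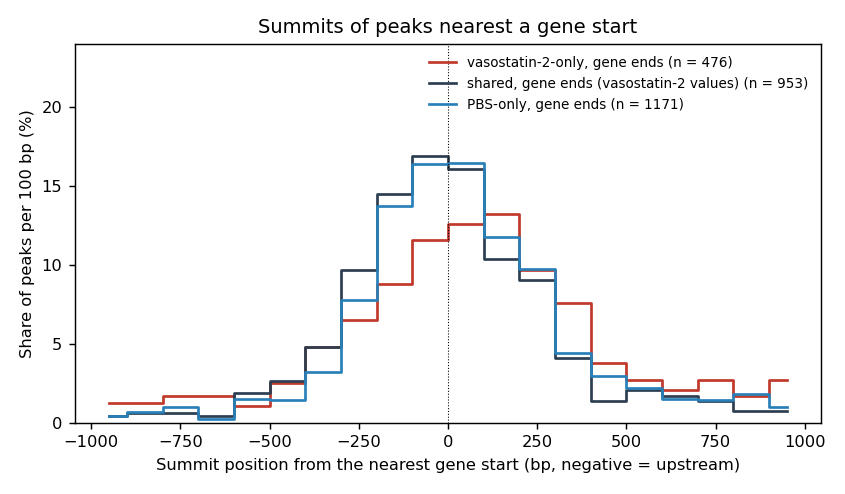
Percent of peaks per bin (vertical axis) by position of the summit along the gene from the nearest start in bp (horizontal axis, negative values before the start) for peaks assigned to a start. The vasostatin-2-only peaks are less concentrated at the start than the shared and PBS-only peaks, with 51.64% against 67.01 and 64.9% of all gene-end peaks within 250 bp of an end.

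Across chromosomes, members per 100 protein-coding genes were most frequent on chromosome 19 (4.82, 34 members) and chromosome 16 (4.42, 30 members). They were least frequent on chromosome 13 (1.45, 12 members) and the X (1.45, 14 members). Chromosome Y had no member among its 100 vasostatin-2 peaks.

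The 20 members of highest fold ran from 7.15- to 11.03-fold and from 10 to 22 fragments. Of these, 10 were nearest a start, 4 nearest a far end, and the strand was not known for 6. These are values from 1 library and have no replicate check. Ulk1, the kinase that starts autophagy, led with 11.03-fold and 20 fragments, 137 bp before its outer start, 176 before the tabulated one (chr5:110809992-110810298), with the nearest PBS peak 29674 bp away. Rubcn, an inhibitor of autophagosome maturation, had 11 fragments at 7.57-fold in a region it shares with the start of Fyttd1. Tfrc, the transferrin receptor that brings iron into cells, had 10 fragments at 7.15-fold, 130 bp after its outer start, and the nearest PBS peak was 36344 bp away.

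Other strong members at starts lay at genes of several functions. The alpha-tubulin gene Tuba1c had 18 fragments at 8.41-fold, 451 bp inside the gene. Bcl7c, a subunit of the BAF chromatin remodeller, had 16 fragments at 7.94-fold, 183 bp before its start. Adamts12, a secreted metalloprotease, had 17 fragments at 10.29-fold but lay 981 bp before its start, close to the limit of the rule. Pspc1, a paraspeckle RNA-binding protein, Ppp1r2, an inhibitor of protein phosphatase 1, and the shared promoter of Shpk and Ctns, a sugar kinase and the lysosomal cystine transporter, had 10, 11 and 10 fragments at 7.19-, 7.16- and 7.37-fold. A region shared by Eef1akmt4, a lysine methyltransferase of an elongation factor, and Alg3, a glycosyltransferase, had 10 fragments at 7.15-fold.

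Of the 4 far-end members among the 20, 3 lay at genes better known from other cell types. Cryba2, a lens crystallin, had 17 fragments 833 bp beyond its far end, Cma1, the mast cell chymase, had 13 fragments 391 bp beyond, and Ly86, a partner of a B-cell and macrophage receptor, had 12 fragments 813 bp beyond. The summit at Prss36 lay 20 bp before the far end. The nearest PBS peaks to Cryba2, Cma1 and Ly86 were 75944, 218587 and 8871 bp away.

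The strand was not given for the members at Nap1l4, a histone chaperone (9.76-fold, 15 fragments), Snorc, a cartilage proteoglycan (9.41-fold, 14), Dele1, a mitochondrial stress factor (8.94-fold, 13), Lrrc24 (8.01-fold, 13), the ribosomal protein gene Rps14 (7.53-fold, 11) and the predicted gene Gm40365 (7.39-fold, 13). By number of fragments rather than fold, the 12 members with most held 14 to 22. They added Xirp1 (17), Ech1, an enzyme of fatty acid oxidation (15), Kctd11, an adaptor of a ubiquitin ligase (15), and Cst6, a protease inhibitor (14). Their folds of 4.94 to 6.86 lay below those of the first 20.

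Gene groups gave few members, and their shares can be read against the 3.53% of all protein-coding genes. Of 39 groups chosen by function, 12 had no gene with a member. Most of the rest had 1 to 3 genes, for which counting error is wide. No test was made of any group, so the counts are a description.

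The cell cycle group had the largest share of the 39, with 5 of 28 genes (17.86%), while shared peaks marked 2 and PBS-only peaks 6. E2f3, a transcription factor for S-phase genes, had 12 fragments at 5.99-fold, 327 bp from its start. Cdkn1b, which encodes the cyclin-dependent kinase inhibitor p27, had 6 fragments 84 bp from its start, and Wee1, the kinase that holds CDK1 inactive, had 5 fragments 179 bp from an end of unknown kind. Wee1 also had a shared end peak, and a PBS peak at this gene had 17 fragments at 7.99-fold. Mdm2, the ubiquitin ligase for p53, had 8 fragments at its far end, 463 bp away. The member assigned to Trp53 had 8 fragments, lay 868 bp before its start, and is shared with the antisense neighbour Wrap53. A PBS peak with 11 fragments lay 1629 bp from it. Thus of these 5 genes only Cdkn1b and E2f3 had a member within 500 bp of a known start.

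Of the smooth muscle contractile group 3 of 28 genes (10.71%) had a member. Cald1, which encodes the actin-binding protein caldesmon, had 10 fragments at 6.04-fold, 58 bp from its start. Rock2, a kinase that promotes contraction, had 7 fragments at 5.49-fold, 489 bp from its start, and Mrtfb, a coactivator of serum response factor, had 5 at 3.79-fold, 749 bp from its start. Shared peaks marked 3 genes of the group and PBS-only peaks 2. Of the matrix and synthetic-state group none of 29 genes had a member (upper limit 11.7%), while shared peaks marked 3 and PBS-only peaks 4. That interval overlaps the 3.71 to 27.2% of the contractile group. Of the osteogenic group 2 of 15 genes had a member, the calcification inhibitors Mgp (5 fragments) and Tnfrsf11b (4).

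The core clock group, the best known targets of NR1D1, had 1 member gene of 25 (4.0%), against 8 with a shared peak and 3 with a PBS-only peak. The member was at Timeless, a replication-fork protein with a debated role in the clock, with 7 fragments at 4.85-fold, 83 bp from its start. Nr1d1 itself, Nr1d2, Per1, Per2, Cry2, Dbp, Ciart and Bhlhe40 had shared peaks and no member. None of 10 genes of the NCoR-HDAC3 complex and heme supply and none of 47 nuclear receptor genes had a member.

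Iron and autophagy genes gave 2 members each. In the oxidative stress and ferroptosis group (2 of 24, 8.33%), Tfrc was joined by Ncoa4, the receptor that sends ferritin to lysosomes, with 9 fragments at 5.84-fold, 170 bp from its start. In the autophagy and lysosome group (2 of 26, 7.69%), Ulk1 was joined by Atg12, a ubiquitin-like conjugation protein, with 7 fragments at 5.02-fold. PBS-only peaks marked 4 and 6 genes of these groups.

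Several groups of regulators gave 1 to 3 member genes each. In the Kruppel-like and Sp factor group (3 of 26, 11.54%), Klf3, Sp3 and Klf11 had 10, 7 and 8 fragments, at 438, 734 and 838 bp from their starts. Klf3 also had a PBS-only end peak, with 9 fragments, 76 bp from the member. In the TGF-beta, BMP and Notch group (2 of 27), Skil, an inhibitor of SMAD signalling, had 9 fragments and the ligand Tgfb3 had 5. Skil also had a PBS-only end peak, with 7 fragments, 486 bp from the member. Single genes were marked among inflammatory genes (the chemokine Cxcl1, 8 fragments, 41 bp from its start), immediate early genes (Ier3, 9), metabolic genes (Cpt1a, the gate of mitochondrial fatty acid import, 7), unfolded protein response genes (the sensor Ern1, 8) and chromatin regulators (Setd2, 6, at its far end). Ier3 also had a PBS-only end peak and Setd2 a shared one. A PBS peak at Setd2 had 20 fragments at 10.77-fold.

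Counts in the larger gene families did not follow their size. Splicing factors had 6 of 68 genes (8.82%), among them Prpf8 and U2af2 with 6 fragments each and Srsf5 with 7. Chaperones had 6 of 83 (7.23%). Among these Hspb7 had the most fragments, 10, at its far end. Dnajc17 had the highest fold, 5.85, in a peak nearer the start of Zfyve19. Prpf8 and U2af2 also had PBS peaks within 3 kb of an end, with 12 and 13 fragments, and U2af2 had a shared end peak. The U2af2 member lay nearer the start of Epn1 (176 bp) than an end of U2af2 (368 bp). Translation factors and tRNA synthetases had 6 of 105 (5.71%), a count that takes in Eef1akmt4, which modifies an elongation factor and is not one. Ubiquitin proteases and TRIM ligases had 7 of 132 (5.30%), potassium and calcium channels 2 of 162 (1.23%), respiratory chain subunits 1 of 84 and histones 1 of 82. Zinc finger protein genes had 18 of 464 (3.88%) and solute carriers 12 of 387 (3.10%), close to the background. Olfactory and vomeronasal receptors had 2 of 1459 (0.137%) and none of 39 proteasome subunit genes had a member. Shared peaks marked 15, 16, 18, 14, 1, 7, 4, 41, 25, 0 and 3 genes of these families, in the order of the member counts above. PBS-only peaks marked 10, 15, 16, 9, 8, 16, 14, 40, 28, 4 and 8.

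Of the chosen marker genes of other cell types none carried a member. None of 14 endothelial, 14 macrophage and leukocyte, 14 fibroblast or 16 hepatocyte marker genes had one, although Cma1 and Ly86, known from mast cells and from B cells and macrophages and not in these lists, did. Peaks do not measure expression, so the cell type named in the labels was not checked by this.

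**Figure D4:**
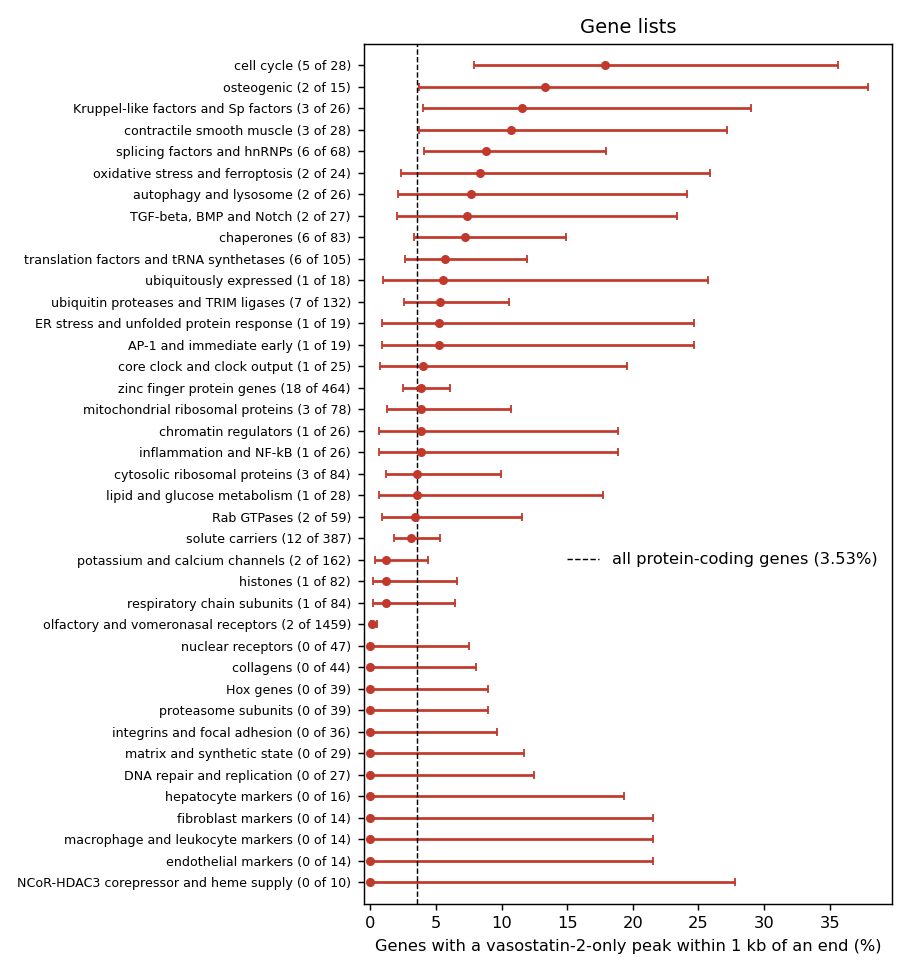
Percent of the genes in each group (horizontal axis) with a vasostatin-2-only end peak, with the count of genes beside each group, 95% Wilson intervals as bars, and a dashed line at 3.53%, the share over all protein-coding genes. The cell cycle group has the largest share, 5 of 28 genes, and several groups stand at 0.

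The promoter letters under the members were compared with those of all promoters. A summit fell in a tabulated promoter window, from 250 bases before to 50 after a start, for 177 members, 522 shared and 609 PBS-only peaks, and 21263 promoters served as the reference. Motifs were counted on both strands in the 250 bases before the start, whether or not they lay inside the peak. Below, letters under a peak are letters in the promoter whose window held its summit. AGGTCA was found under 19 of 177 members (10.73%, 6.98 to 16.16%), 7.47% of shared and 8.37% of PBS-only peaks, and in 12.8% of all promoters. The extended ROR element, an A/T-rich flank joined to the last letters of the core site, was found under 0 of 177 members (upper limit 2.12%) and in 0.475% of all promoters. The interval for the core site under members thus includes its share of all promoters.

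Promoters under members were richer in GC and CpG than all promoters. The GC box, the cyclic AMP response element and the TATA box departed from all promoters beyond counting error. For the other letters the members' interval overlapped that of all promoters. Median GC content was 62.4% for members, 63.6% for shared peaks, 62.4% for PBS-only peaks and 55.6% over all promoters, and the median number of CpG was 18, 19, 19 and 10. The GC box GGGCGG was found under 69.49% of members (62.35 to 75.8%), 80.65% of shared peaks (77.04 to 83.81%), 73.07% of PBS-only peaks and in 42.62% of all promoters. The cyclic AMP response element TGACGTCA was found under 9 members (5.08%, 2.70 to 9.38%), 4.02% of shared and 4.43% of PBS-only peaks and in 1.92% of all promoters. The E-box CACGTG was found under 11 members (6.21%), 7.28% of shared peaks, 9.85% of PBS-only peaks and in 6.63% of all promoters. The TATA box TATAAA was found under 1.13% of members, 4.60% of shared and 4.76% of PBS-only peaks and in 11.63% of all promoters. CCAAT was found under 38.98% of members and in 35.37% of all promoters, the ETS letters CCGGAAGT under 5.65% and in 3.79%, the YY1 letters AAGATGGC under 3.39% and in 1.496%, and the AP-1 letters TGACTCA under 1.13% and in 4.06%. Members differed from shared peaks beyond counting error only in the GC box, and for the letters compared here their intervals overlapped those of PBS-only peaks.

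**Figure D5:**
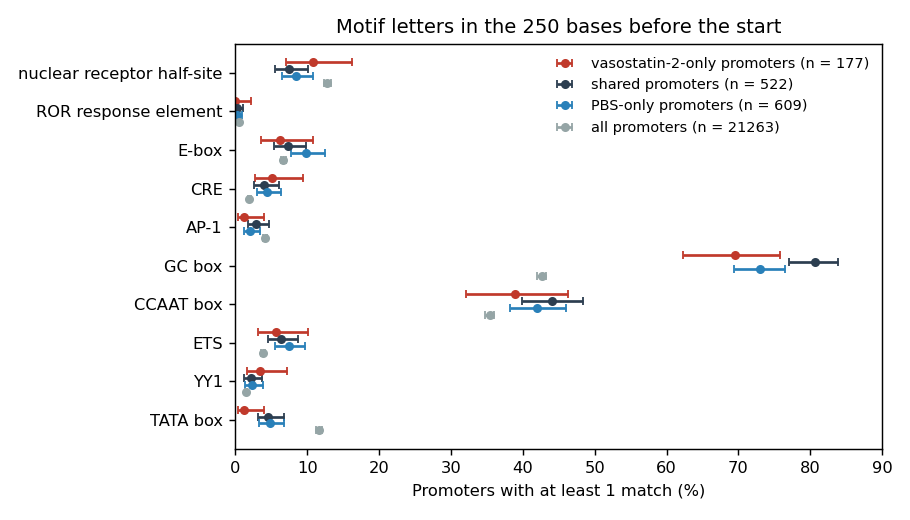
Percent of promoters holding each motif within 250 bases before the start (horizontal axis) for vasostatin-2-only, shared and PBS-only peaks and all promoters, with 95% Wilson intervals; the nuclear receptor half-site is AGGTCA. The GC box stands at 69.49% of promoters holding a vasostatin-2-only summit and 80.65% of those holding a shared summit, against 42.62% of all promoters.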

How the data were processed

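NR1D1 CUT&Tag peak lists of 2 libraries of primary mouse aortic smooth muscle cells, 1 given vasostatin-2 and 1 given PBS for 24 hours, were analysed. The submitters' processing notes name MACS2 2.2.7.1, BWA 0.7.17, Trimmomatic 0.39 and the mm10 build, with no order or settings. How the IgG libraries entered the peak calls is not given in the sources used here. Each deposited list holds the authors' peak score, fold (a ratio to local background) and −log10 p-value and q-value, with the summit offset. The fragments at each summit were worked out by combining its fold with its −log10 p-value, as deposited, under a Poisson model with 1 added to both terms of the ratio. The whole numbers so found matched the deposited −log10 p within 0.0005 at 100% of peaks in both lists. For the depth ratio of 1.32, the lowest background of each list was divided by the fragment length of that library. The lowest backgrounds were 0.3102 fragments for PBS and 0.3813 for vasostatin-2. The fragment lengths, 195.9 bp in the PBS and 182.6 bp in the vasostatin-2 library, were fitted to the steps between background levels.

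Summits were set against both ends of 21887 RefSeq protein-coding genes, and overlaps of at least 1 bp were found in Python 3.11.15 (pandas 2.3.3, SciPy 1.17.1) and checked with bedtools 2.31.1. Strand came from the RefSeq promoter table, which covers 17492 of those genes. Shares carry 95% Wilson intervals, which assume independent fragments and peaks. No test of treatment was possible and none was run; the recovery of fragments was tested on simulated data.

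The members, the gene groups and the rules for named genes were chosen with earlier results of these data known. Genes named are the 20 members of highest fold, the 12 with most fragments and, in most groups, up to 4 by fold. Others are those at the edges of the rule and members at genes with another PBS peak. Alternatives were other distances to a gene end, other definitions of overlap and stricter peak thresholds.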

Additional observations from a re-analysis of the deposited data

How the results depend on the processing

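Of 35 recomputed values, 22 moved by more than 1.5 times (for counts) or beyond the reported 95% interval (for shares), and 13 did not. Stricter peaks changed the counts most. The number of vasostatin-2-only gene-end peaks fell from 672 to 80 at a −log10 q of at least 5, to 225 at or above the median fold of the list and to 223 with at least 8 fragments, and the number of genes from 773 to 91, 251 and 260. With those 3 thresholds the share of vasostatin-2-only peaks that lay at gene ends was 7.80, 8.87 and 11.74%, and the share of gene-end peaks without a PBS peak was 13.54, 21.15 and 20.18%, against 36.25% over all. With gene ends taken within 500 bp or 2 kb, the first share was 8.43 or 14.69% and the second 33.35 or 41.07%. Where only an overlap of 50% counted as shared, they were 11.85 and 40.67%, and where a PBS peak within 500 bp counted as shared the second was 33.39%. The start share was 91.47% within 500 bp, 79.37% within 2 kb and 80.95% (69.59 to 88.75%) at the stricter q, against 88.15%. These thresholds were applied to the vasostatin-2 list alone, so they keep its stronger peaks and leave every PBS peak in place.

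No paired analysis was possible because each treatment has 1 NR1D1 library, and leaving out a library was not run for the same reason. Depth is a further limit, since 188 members have 4 or 5 fragments at the summit.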

Other observations

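Several further gene groups were formed after the values were seen, so their counts are a description and the groups cannot be read against the background of all genes. Of 7 caveola genes, 3 had a vasostatin-2-only end peak. Cavin3 had 10 fragments at 7.11-fold, Cav1, the main coat protein of caveolae, 6 at 4.47-fold, 297 bp from its start, and Cavin2 4 at 3.62-fold. A PBS peak with 7 fragments at 4.49-fold lay 1555 bp from the Cav1 member. Cavin1 had a PBS-only end peak, and no gene of the group had a shared one. Of 14 Hippo pathway genes, the kinases Lats1 and Lats2 and the transcription factor Tead4 had a member, each with 6 fragments. The Lats1 member lay nearer the start of Pcmt1 (319 bp) than that of Lats1 (456 bp). The upstream genes Stk3, Stk4, Nf2 and Mob1a had PBS-only end peaks.

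Of 21 genes of intrinsic apoptosis, 5 had a member. The inhibitor Birc2 had 9 fragments 107 bp before its start, the initiator caspase Casp9 had 8 fragments 51 bp from its start and the nuclease Dffb had 9 fragments 807 bp from its start. Bad and Bax had 10 and 7 fragments near their far ends, and Bax also had a PBS-only end peak. Cycs and Diablo had shared end peaks, and Apaf1 and Bcl2l11 had PBS-only ones.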
